A study of Mus musculus with 21 samples.

Results

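These data describe what an injury in one hindlimb changed in the muscle stem cells of the other hindlimb when those cells lacked Rptor. The comparison sets Rptor KO cells from the limb opposite the injury (contralateral stem cells, CSC) against Rptor KO cells from mice without injury (quiescent stem cells, QSC). It holds 4 of the 21 arrays of the series and 2 of its 12 pools. Each Rptor KO group was 1 pool of cells from 3 to 4 mice, hybridised on 2 arrays, and both groups were defined by their genotype and treatment labels.

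The Rptor KO mice were Rptrflox/flox;Pax7CreER/+;Rosa26REYFP/+ (the label's spelling), of mixed C57BL6 strain and 3 to 5 months old. Tamoxifen was given at least 2 weeks before any injury. CreER is made from the Pax7 locus, so both the deletion and the YFP tracer arise only in cells that express Pax7, and other cells of these mice keep Rptor. CSC mice received BaCl2 (barium chloride, which kills muscle fibres) in one hindlimb, and YFP-positive cells were sorted from the opposite hindlimb 2.5 days later. QSC mice were not injured. RNA was extracted directly after the sort, without culture, and 100 ng was labelled for the Affymetrix Mouse Gene 1.0 ST array. WT mice (Pax7CreER/+;Rosa26REYFP/+, same strain label and age) gave 3 QSC pools on 5 arrays and 3 CSC pools on 4 arrays, and carried the same CreER and tracer. The cMet KO mice (cMetflox/flox on the same CreER and tracer, C57BL6 mixed with FVB) gave 1 QSC pool and 1 CSC pool with 2 arrays each. They lack the receptor for hepatocyte growth factor and serve below as the other knockout with 1 QSC pool and 1 CSC pool. The rest of the series was 1 pool of TSC1 KO QSC and 1 pool of WT CSC taken 28 days after injury, with 2 arrays each. Both enter the filter, the fit and the counts over all 12 pools.

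Raptor, the product of Rptor, is the scaffold subunit through which the kinase complex mTORC1 finds its substrates. mTORC1 promotes protein, lipid and nucleotide synthesis, mitochondrial activity and cell growth when growth factors and nutrients are present. Adult muscle stem cells rest outside the cell cycle, and cells far from an injury can enter an alert state, in which they stay out of division but are larger, more active in metabolism and faster to divide later. The question the comparison addresses is which parts of the response to a distant injury were still measured without mTORC1.

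The values are log2 probeset signals, and a difference of 1 is a 2-fold change of signal. Array medians lay between 7.03 and 7.21, and those of the Rptor KO arrays between 7.16 and 7.19. With 1 pool per Rptor KO group, the error of every Rptor KO difference was taken from the spread of the WT pools, and pool and condition cannot be told apart. A gene was called at a Benjamini-Hochberg adjusted p under 0.05 over the 13956 genes tested with limma. The median standard error (SE) of a difference was 0.267 for the Rptor KO and 0.154 for WT. The second arrays of both Rptor KO pools differed from their first arrays in a shared way (r = 0.62 across genes), and the same pattern recurred in WT CSC pool 1 (r = 0.64 and 0.69). Across genes, the CSC minus QSC differences of the first and of the second Rptor KO arrays correlated at 0.738. The Rptor probeset read 9.04 and 9.34 on the QSC arrays and 8.73 and 8.96 on the CSC arrays, against 8.91 to 9.58 in WT QSC. It does not check the genotype, because where its probes lie relative to the deleted exon is not given in the sources used here. Both Rptor KO pools carried the stem cell marker Pax7, which read 11.60 and 11.82 in QSC and 11.03 and 11.13 in CSC. The myogenic gene Myod1 read 12.34 to 12.52 on all 4 arrays. Over a list of 10 satellite (muscle stem) cell markers, the mean level was 11.18 in Rptor KO QSC, beside 11.24 to 11.54 in WT QSC. It was 11.03 in Rptor KO CSC, beside 10.90 to 11.01 in WT CSC. Rptor KO QSC was below all 3 WT QSC pools in 6 of the 10, beside 26.5% of all tested genes.

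Without Rptor, the distant injury left a short list of higher genes and no gene called lower. In Rptor KO CSC, 36 genes rose (0.258% of those tested), and 431 were higher at an unadjusted p under 0.05 (3.09%). No gene was called lower (0%), and 275 were lower at an unadjusted p under 0.05 (1.97%). All 36 rose more than 2-fold. In WT, 1483 genes rose (10.6%) and 1027 fell (7.36%), from 3 pools in each group. These shares over all tested genes are the background for the list counts below. In the cMet KO, no gene was called in either direction (0%), and 75 passed an unadjusted p under 0.05. The count for the Rptor KO fell by more than 1.5 times when WT CSC pool 1, 2 or 3 was left out (19, 18 and 15 genes) and rose to 55 without WT QSC pool 2.

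With 3 WT pools a group, WT has more power to call genes, so the counts were also set beside WT with 1 pool on each side. The 9 pairs of 1 WT CSC pool and 1 WT QSC pool gave 124 to 708 called genes, with a median of 238, and each pair called between 9 and 119 genes lower. Genes changed more than 2-fold numbered 535 to 1581 in these pairs, 209 in the Rptor KO and 31 in the cMet KO. The SD of the differences across genes was 0.439 to 0.636 in the WT pairs, 0.348 in the Rptor KO and 0.184 in the cMet KO. The 9 pairs reuse the same 3 QSC and 3 CSC pools, which also gave the error, so they are not independent. WT QSC pool 3 and WT CSC pools 2 and 3 had 1 array each, while each Rptor KO pool had 2. By each of these measures the Rptor KO change was smaller than that of all 9 WT pairs. It was larger than that of the cMet KO by the called genes in all, the genes past 2-fold and the SD, while neither knockout had a gene called lower.

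**Figure D1:**
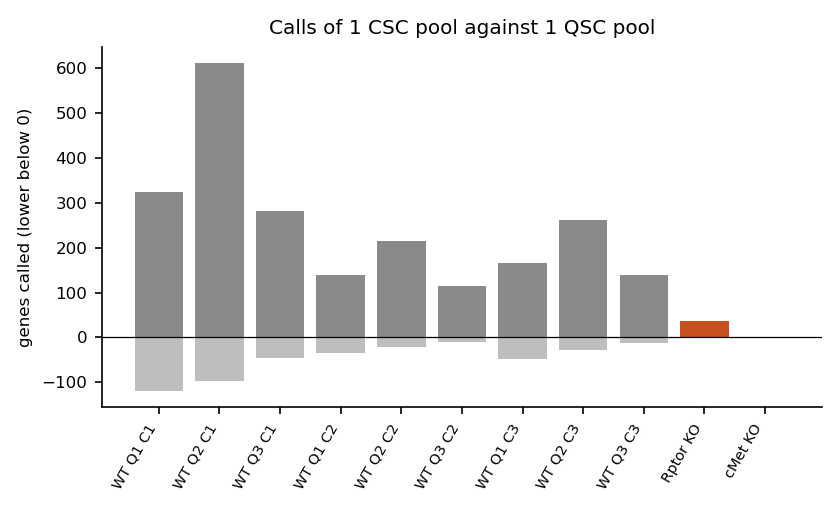
Genes called higher (above 0) and lower (below 0) for 1 CSC pool against 1 QSC pool, at an adjusted p under 0.05 in limma. Grey bars are the 9 pairs of WT QSC pool (Q) and CSC pool (C), the orange bar is the Rptor KO (36 higher, 0 lower), and the cMet KO has no call.

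Over the genes called in WT, the Rptor KO difference mostly pointed the same way as the WT response and was smaller on average. Across all tested genes, which are not independent, the 2 differences correlated at 0.617 (Pearson) and 0.566 (Spearman), and 69.1% had the same sign. Over the 2510 genes called in WT, 90.4% had the same sign in the Rptor KO, and a line through the origin had a slope of 0.467. The slope was 0.453 over genes that rose in WT and 0.496 over genes that fell. Their median Rptor KO differences were 0.31 beside 0.81 in WT for the higher genes, and -0.39 beside -0.75 for the lower ones. With WT genes chosen on other WT pools than those that gave the response, the slope was 0.383 to 0.557 in 9 pairs, with a median of 0.473. The cMet KO gave a slope of 0.0785 over the same genes, with 65.1% of the same sign. The Rptor KO response minus the WT response was called for no single gene (0%), with a smallest adjusted p of 0.0662 and 620 genes at an unadjusted p under 0.05. The Rptor KO response minus the cMet KO response was also called for no gene (0%), with a smallest adjusted p of 0.0645 and 261 genes at an unadjusted p under 0.05.

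**Figure D2:**
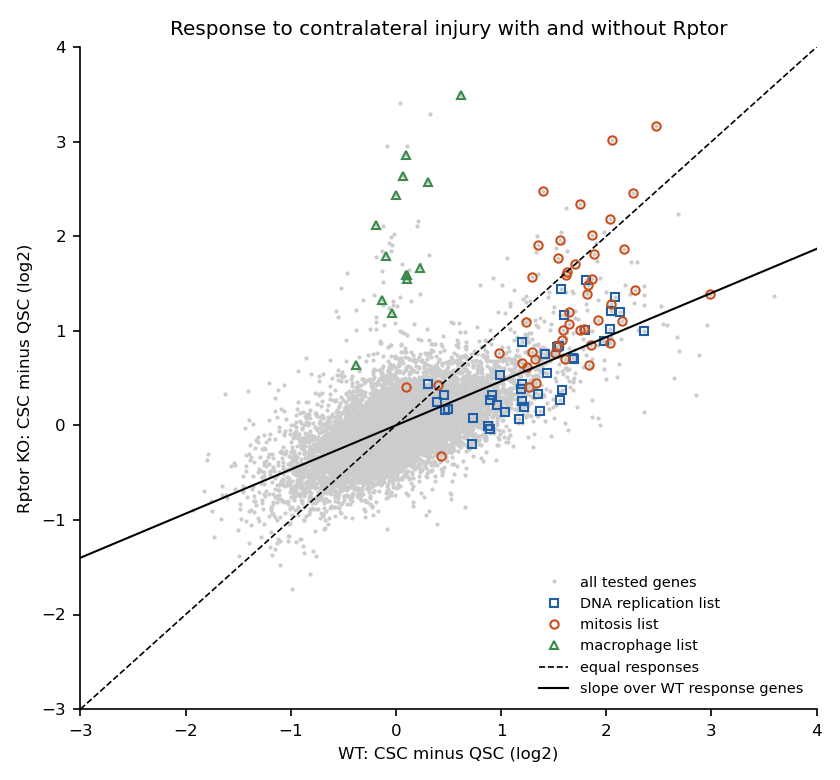
CSC minus QSC difference (log2) in the Rptor KO against that in WT, 1 point per tested gene, with the members of 3 lists marked. The solid line has the slope 0.467 of the WT response genes and the dashed line marks equal responses. Mitosis genes lie nearer the dashed line than DNA replication genes, and macrophage genes lie high in the Rptor KO and not in WT.

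The 36 higher genes fell into 2 groups. Of these genes, 23 also rose in WT, and 15 of the 23 belong to a list of mitosis, spindle and cytokinesis genes. The other 13 did not rise in WT. Of these, Fcer1g and Tyrobp belong to the list of macrophage and monocyte markers, and 11 are in neither list. At the same threshold, 14 of the 36 genes stayed called in every one of 18 alternative analyses that tested them: Anln, Bub1, Ccna2, Ccnb2, Cks2, Kif11, Mki67, Sgo2a, Top2a, C3ar1, Ctss, Mpeg1, Trem2 and Tyrobp. At an adjusted p under 0.01, 10 of the 36 were called, and of the 14 genes Bub1, Ccnb2, Cks2 and Tyrobp were not.

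Among the cell division genes, Ccna2, which encodes cyclin A2 of S phase and the entry into mitosis, read 6.22 and 6.69 on the Rptor KO QSC arrays and 9.71 and 9.23 on the CSC arrays. WT QSC pools read 9.19, 8.91 and 9.05, and WT CSC pools 11.08, 11.03 and 11.20. Rptor KO CSC thus lay far above Rptor KO QSC, a little above WT QSC and below every WT CSC pool. The rise was 3.02 ± 0.23 (SE) in the Rptor KO (limma, adjusted p = 0.00228) and 2.05 ± 0.13 in WT. Anln, which encodes the cytokinesis protein anillin, went from 6.16 and 6.13 to 9.54 and 9.08, a rise of 3.16 ± 0.21 (adjusted p = 0.00151), beside 2.47 in WT. Mki67, the proliferation marker Ki-67, went from 7.13 and 6.77 to 9.47 and 9.38, a rise of 2.47 ± 0.23 (adjusted p = 0.00684), beside 1.40 in WT. Top2a, the topoisomerase that untangles chromosomes before they part, went from 6.42 and 6.39 to 9.03 and 8.46, a rise of 2.34 ± 0.22 (adjusted p = 0.00691), beside 1.75 in WT. In these 4 genes both CSC arrays were higher than both QSC arrays by more than 2 log2 units, and the Rptor KO rise had the larger value of both genotypes. The 4 were named for large called rises in the Rptor KO, so large Rptor KO values are partly built into the choice.

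The difference between the 2 responses was +0.96 for Ccna2 (95% interval 0.37 to 1.56) and +1.07 for Mki67 (0.47 to 1.68), with adjusted p of 0.625 and 0.552 over all genes. For Kif11, the spindle motor Eg5, which rose by 2.02 in the Rptor KO and 1.87 in WT, the interval was -0.38 to 0.68. For Cdk1, the kinase that drives mitosis, with rises of 1.86 and 2.17, it was -1.04 to 0.43. Kif20a, a kinesin of cytokinesis, rose by 1.43 in the Rptor KO and 2.27 in WT, and the difference of -0.84 (interval -1.40 to -0.28) had an adjusted p of 0.735. Over the 23 genes, Rptor KO rises ran from 1.33 to 3.16 with a median of 1.93, and WT rises from 1.21 to 2.68 with a median of 1.87. These genes had to pass the threshold in the Rptor KO, so large Rptor KO rises are partly built into the choice. Over the 47 tested genes of the mitosis list, called or not, the medians were 1.11 in the Rptor KO and 1.64 in WT. There the Rptor KO response was below the WT response in 32 of the 47, beside 53% of all tested genes. The difference of responses passed the adjusted threshold for none of the 23, and the smallest adjusted p was 0.552.

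**Figure D3:**
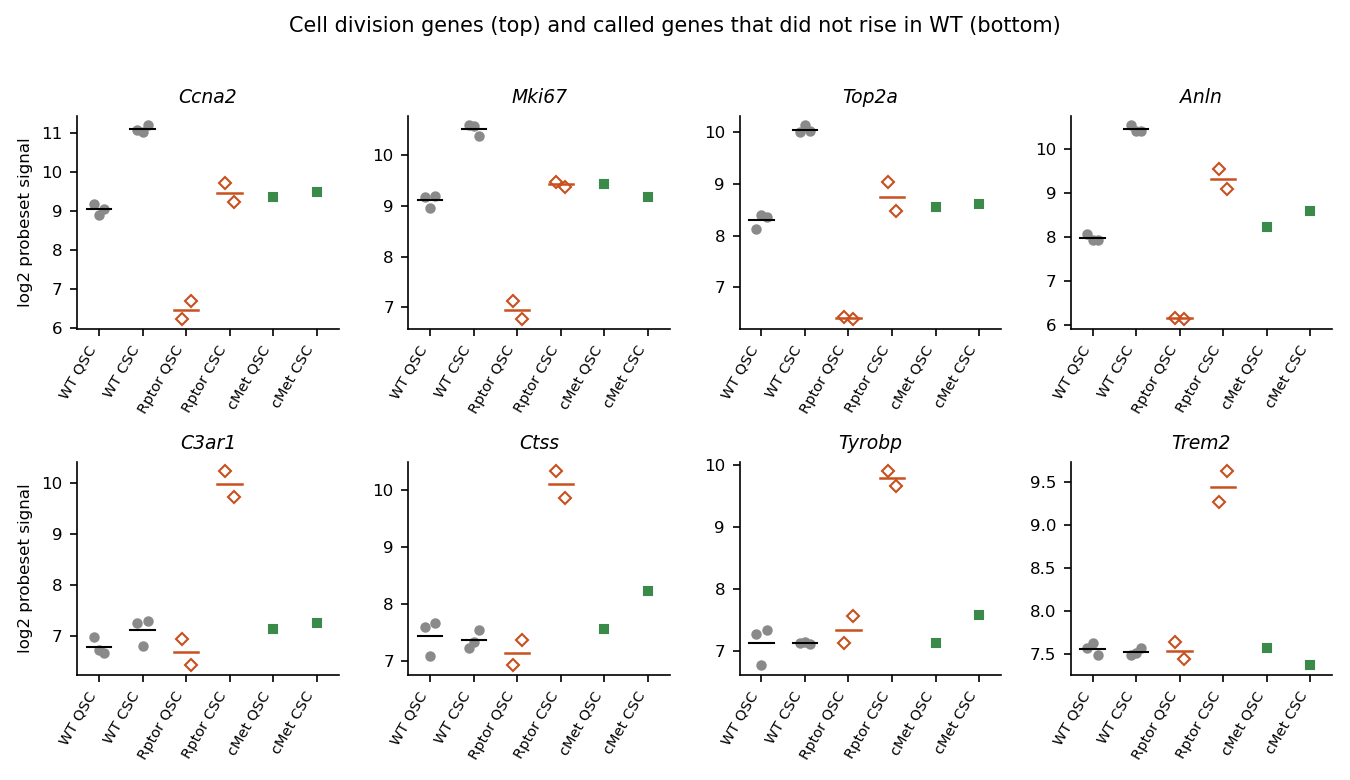
log2 probeset signal of 4 cell division genes (top) and 4 of the 13 called genes that did not rise in WT (bottom). Grey points are WT pools with their mean as a line, open orange diamonds the 2 arrays of each Rptor KO pool with their mean, and green squares the cMet KO pools; the division genes start low in Rptor KO QSC, and the bottom 4 genes are high in Rptor KO CSC alone.

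The division genes started from a low level in Rptor KO QSC. Across the whole mitosis list (47 genes tested of 49 matched on the array), the mean level was 6.60 and 6.66 on the Rptor KO QSC arrays, 8.01 and 7.84 on the CSC arrays, 7.37 to 7.51 in WT QSC and 9.02 to 9.20 in WT CSC. The Rptor KO QSC pool was below all 3 WT QSC pools in 41 of the 47 genes, beside 26.5% of all tested genes. Rptor KO CSC was above all 3 WT QSC pools in 42 of the 47, beside 23.4% of all tested genes, and below all 3 WT CSC pools in 46 of the 47, beside 38.3%. The cMet KO pools had mean levels of 7.63 and 7.67, inside the gap between WT QSC and WT CSC, and close to each other. Set against WT QSC, Rptor KO QSC had 12 genes called lower (0.086%) and 5 called higher (0.0358%). Of the 12 lower genes, 8 were cell division genes that also rose in Rptor KO CSC: Anln, Bub1, Ccna2, Cks2, Ect2, Kif11, Mki67 and Top2a. A low QSC level also made a gene more likely to be called in the Rptor KO response, since the same QSC pool enters both comparisons.

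The median Rptor KO difference of the mitosis list was 1.11, beside 1.64 in WT, 0.03 in the cMet KO and -0.04 over all tested genes in the Rptor KO. Of the 47 genes, 15 rose in the Rptor KO, beside 0.258% of all genes, and 44 rose in WT. Both CSC arrays were above both QSC arrays in 44 of the 47, beside 18.9% of all tested genes. Members called in the Rptor KO beside those already given were Bub1, a kinase of the spindle checkpoint, at 2.46 ± 0.28; Ccnb2, cyclin B2, at 2.18 ± 0.25; Ube2c, the E2 enzyme of the anaphase-promoting complex, at 1.96 ± 0.28; Ect2, which directs the cleavage furrow, at 1.81 ± 0.27; and Tpx2, Kif23, Smc2 and Nusap1 at 1.56 to 1.77. Plk1, the polo kinase of mitotic entry, had the largest WT rise of the list, 2.99, and a Rptor KO difference of 1.39 ± 0.36 that did not pass (adjusted p = 0.378). Of the 23 genes, 8 were outside the list. They included Cks1b and Cks2, small subunits of cyclin-dependent kinases, at 1.72 ± 0.24 and 2.00 ± 0.22, the histone chaperone Asf1b at 1.48, the histone gene H2ac15 at 1.87, Sgo2a, a protector of chromosome cohesion, at 1.93, Ckap2l, a spindle protein, at 1.33, and D17H6S56E-5 at 2.04 ± 0.24 beside 1.97 in WT. Lgals3, the lectin galectin-3, was the exception among the 23: it was not low in Rptor KO QSC (8.35 and 8.72, WT QSC 8.13 to 8.47), and rose by 2.24 ± 0.29 to 10.80 and 10.75, beside 10.76 to 11.28 in WT CSC.

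The promoters of the division genes share sequence elements that the choice of genes did not use. The stretches are the 110 bases upstream of the start site from the RefSeq promoter table (GRCm38.p6), written 5′ to 3′ on the strand of the gene. They were picked after the matches were known, as examples of members that hold both elements. Capitals mark CCAAT, the box bound by the factor NF-Y, and TTTGAA, the core of the cell cycle homology region (CHR) bound by the MuvB complexes, each on either strand, so that ATTGG and TTCAAA are the same elements reversed. They are Top2a (chr11:99024190-99024299, minus strand), Ube2c (chr2:164769819-164769928, plus strand), Kif11 (chr19:37376272-37376381, plus strand), Cdk1 (chr10:69352913-69353022, minus strand) and Cks1b (chr3:89418292-89418401, minus strand).
Top2a: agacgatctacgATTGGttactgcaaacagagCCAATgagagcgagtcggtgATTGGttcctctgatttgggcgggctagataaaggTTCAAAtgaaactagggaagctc
Ube2c: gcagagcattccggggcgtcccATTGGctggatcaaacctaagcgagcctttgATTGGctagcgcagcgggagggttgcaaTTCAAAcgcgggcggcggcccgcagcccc
Kif11: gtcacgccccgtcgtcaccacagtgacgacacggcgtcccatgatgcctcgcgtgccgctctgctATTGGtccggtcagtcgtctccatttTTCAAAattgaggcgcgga
Cdk1: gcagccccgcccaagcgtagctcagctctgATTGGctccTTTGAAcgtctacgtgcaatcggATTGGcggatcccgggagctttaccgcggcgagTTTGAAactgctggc
Cks1b: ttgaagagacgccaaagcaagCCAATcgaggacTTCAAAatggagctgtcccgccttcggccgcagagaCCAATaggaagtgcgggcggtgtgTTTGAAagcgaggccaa

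In these 5 promoters the TTTGAA element nearest to the start site begins 15 to 29 bases upstream of it, and the nearest CCAAT box begins 41 to 58 bases upstream. Over the full window of 250 bases before to 50 after the start, 31 of the 36 called genes had a promoter in the table. TTTGAA occurred in 51.6% of these 31 and CCAAT in 67.7%, beside 14.1% and 41.6% of the 11009 promoters of tested genes. In the 12 promoters of the called mitosis genes, each element occurred in 83.3%. Over the whole mitosis list (40 promoters), TTTGAA occurred in 77.5% and CCAAT in 67.5%, and over the 1233 promoters of genes that rose in WT the shares were 18.7% and 45.5%. A match describes letters in this window and not a site in use.

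DNA replication genes, the other arm of the WT cell cycle response, stood closer to their QSC level in the Rptor KO. None of the 40 tested genes of the DNA replication and S phase list was called in the Rptor KO. At an unadjusted p under 0.05, 17 were higher, beside 3.09% of all tested genes, while 35 rose in WT, beside 10.6%. The median difference was 0.41 in the Rptor KO, 1.29 in WT and 0.25 in the cMet KO. The mean level went from 7.62 and 7.74 on the QSC arrays to 8.27 and 8.21 on the CSC arrays, while WT went from 7.62 to 7.83 in QSC to 8.96 to 9.10 in CSC. Unlike the mitosis list, this list began near the WT level: Rptor KO QSC was below all WT QSC pools in 13 of 40 genes, beside 26.5% of all tested genes. Rptor KO CSC was below all WT CSC pools in 39 of 40, beside 38.3%. The Rptor KO response minus the WT response had a median of -0.80 over the list and -0.02 over all genes. It was negative in 39 of 40 members, beside 53% of all tested genes. At an unadjusted p under 0.05, 22 of the 40 were negative, beside 406 of the 13956 tested genes, and 0 after adjustment over all genes.

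The members with the smallest p were the chromatin assembly factor subunit Chaf1b, from 6.10 and 6.88 to 7.91 and 8.14 (1.54 ± 0.26, adjusted p = 0.0612), the replication licensing regulator Dtl at 1.45, the DNA polymerase epsilon subunit Pole2 at 1.16 and the methylation reader Uhrf1 at 1.36. Their WT rises were 1.80, 1.57, 1.60 and 2.08. Mcm6, a subunit of the replicative helicase, read 7.62 and 7.91 on the Rptor KO QSC arrays and had a mean of 8.97 over the CSC arrays, a difference of 1.21 ± 0.28, beside a WT rise of 2.05. All 5 were higher on both CSC arrays than on both QSC arrays, and none passed the adjusted threshold.

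In their promoters, the replication genes more often hold the E2F-type letters TTTNNCGC than the CHR core. Capitals mark TTTNNCGC on either strand in the 110 bases upstream of Mcm6 (chr1:128359706-128359815, minus strand), where matches on opposite strands overlap, and of the chromatin remodeller gene Hells (chr19:38930880-38930989, plus strand), from the same RefSeq table of GRCm38.p6. They are shown for contrast with the mitosis promoters above, and were also picked after their matches and values were known.
Mcm6: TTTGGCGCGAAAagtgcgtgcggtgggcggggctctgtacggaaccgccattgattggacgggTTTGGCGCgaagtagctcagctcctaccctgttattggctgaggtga
Hells: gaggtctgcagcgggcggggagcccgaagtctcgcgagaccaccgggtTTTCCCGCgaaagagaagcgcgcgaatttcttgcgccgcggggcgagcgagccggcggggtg

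TTTNNCGC occurred in 48.5% of 33 replication promoters, 15% of the mitosis promoters, 16.1% of the promoters of genes called in the Rptor KO and 9.17% of all promoters. TTTGAA occurred in 12.1% of the replication promoters and CCAAT in 60.6%, so that the share with CCAAT lay close to that of the mitosis list and the share with TTTGAA did not. Hells read 5.66 and 5.79 in Rptor KO QSC and 7.13 and 6.35 in CSC (1.02 ± 0.23, adjusted p = 0.235), beside a WT rise of 2.04.

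The regulators of the G1 phase were spread between these patterns. Of 11 genes of G1 cyclins and their kinases, none was called in the Rptor KO, and 5 rose and 1 fell in WT. The median difference was 0.37 in the Rptor KO and 0.26 in WT, while 3 of the members named here had smaller differences than in WT. Ccne2, cyclin E2, which starts S phase, read 6.43 and 6.27 in Rptor KO QSC and 7.60 and 6.67 in CSC, while WT rose from 6.24 to 6.49 to 8.59 to 9.37. Its Rptor KO difference was 0.79 ± 0.34 against 2.69 in WT, and the difference of responses was -1.90 (95% interval -2.80 to -1.01, adjusted p = 0.353). Ccne1, cyclin E1, had a difference of 0.38 ± 0.31 beside a WT rise of 1.68. Cdk6, the kinase partner of D cyclins, had 1.01 ± 0.30 beside 2.30. Ccnd1, cyclin D1, had 0.56 ± 0.34 in the Rptor KO and 0.14 in WT, and was called in neither.

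The other 13 higher genes did not rise in WT. C3ar1, the receptor for the complement fragment C3a, read 6.94 and 6.44 on the Rptor KO QSC arrays and 10.23 and 9.73 on the CSC arrays. WT pools read 6.68 to 6.99 in QSC and 6.81 to 7.29 in CSC, and cMet KO pools 7.15 and 7.26. The rise was 3.29 ± 0.29 (adjusted p = 0.00567), while WT differed by 0.32 (adjusted p = 0.224). Ctss, the lysosomal protease cathepsin S, went from 6.94 and 7.37 to 10.33 and 9.87, a rise of 2.95 ± 0.31 (adjusted p = 0.00867), beside -0.08 in WT. Tyrobp, the signalling adaptor DAP12 of myeloid receptors, went from 7.13 and 7.56 to 9.89 and 9.66 (2.43 ± 0.28, adjusted p = 0.0125), beside 0.00 in WT. Trem2, a lipid receptor that signals through DAP12, went from 7.64 and 7.44 to 9.27 and 9.63 (1.90 ± 0.21, adjusted p = 0.00961), beside -0.04 in WT. In all 4 genes Rptor KO QSC lay near the WT QSC pools and Rptor KO CSC stood above all 11 other pools.

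The rest of the group were Mpeg1, the pore-forming protein perforin-2 of phagocytes, at 2.96 ± 0.30, the receptor adaptor Fcer1g at 2.63 ± 0.34, Ly86 at 2.11, Ms4a6c at 1.99, the inhibitory IgG receptor Fcgr2b at 1.84, Pla2g7, which degrades platelet-activating factor, at 1.77, Alox5ap of leukotriene synthesis at 1.71, the chemokine Pf4 at 1.64, and the leukocyte tetraspanin Cd53 at 1.61. The WT differences of these 9 genes ran from -0.47 to 0.23, and Cd53 fell in WT. Rptor KO CSC was above every other pool in 12 of the 13 genes, beside 7.01% of all tested genes, although the 13 were chosen by the signal of this same pool. The exception was Cd53, which read 9.12 in cMet KO CSC and 8.65 in Rptor KO CSC. The difference of responses was +3.03 for Ctss (95% interval 2.22 to 3.84), +2.97 for C3ar1 (2.21 to 3.73) and +1.94 for Trem2 (1.40 to 2.48), each with an adjusted p of 0.0662. For Ctss, C3ar1 and Cd53 this difference passed the threshold under quantile normalization, limma's trend and robust options, the first arrays alone, and without WT QSC pool 2. No gene passed with median centring, either changed filter, the mean of probesets, the second Rptor KO arrays alone or the replicate block. Leaving out any other WT pool also gave no gene. Without a WT CSC pool, the smallest adjusted p (limma) was 0.169 to 0.267. In the cMet KO the 13 genes had a median difference of 0.61, with a range of -0.20 to 1.49.

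A list of 18 macrophage and monocyte markers was measured, and 14 of them passed the filter on low signal. Both Rptor KO CSC arrays were above both Rptor KO QSC arrays in all 18, beside 18.9% of all tested genes. Rptor KO CSC was the highest of all 12 pools in 16, beside 7.01%. The exceptions were Ptprc (CD45), at 7.43 and 7.41 beside a highest other pool of 8.14, and Cd163, which stayed at the low end of the array's range (5.66 and 5.79). The mean level of the 14 tested markers was 7.50 and 7.60 on the Rptor KO QSC arrays and 9.56 and 9.46 on the CSC arrays, and 6.93 to 8.13 in the other pools. The highest of those was cMet KO CSC at 8.13, beside 7.61 in cMet KO QSC. The median difference of the 14 was 1.73 in the Rptor KO, 0.48 in the cMet KO and 0.08 in WT. Fcer1g and Tyrobp passed the adjusted threshold, and all 14 were higher at an unadjusted p under 0.05, beside 3.09% of all tested genes. Itgam (CD11b) read 6.28 and 6.64 in QSC and 8.08 and 7.95 in CSC (1.55 ± 0.25, adjusted p = 0.0552). Among markers under the filter, Adgre1 (F4/80) read 6.12 and 6.36 in QSC and 8.46 and 7.90 in CSC. Lyz2, the macrophage lysozyme, chosen for mention after its values were seen, had the largest difference of any tested gene: 9.11 and 9.11 in QSC, 12.67 and 12.53 in CSC (3.49 ± 0.67). It did not pass (adjusted p = 0.131), and WT QSC pools ranged from 7.89 to 9.46. Of 17 lymphocyte and neutrophil markers, 12 were under the filter, and the other 5 had a median difference of -0.11, with none called. In these sorted pools, more cells of a type and more RNA per cell cannot be told apart, and the part of the macrophage markers in the rise of the division genes was not tested.

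**Figure D4:**
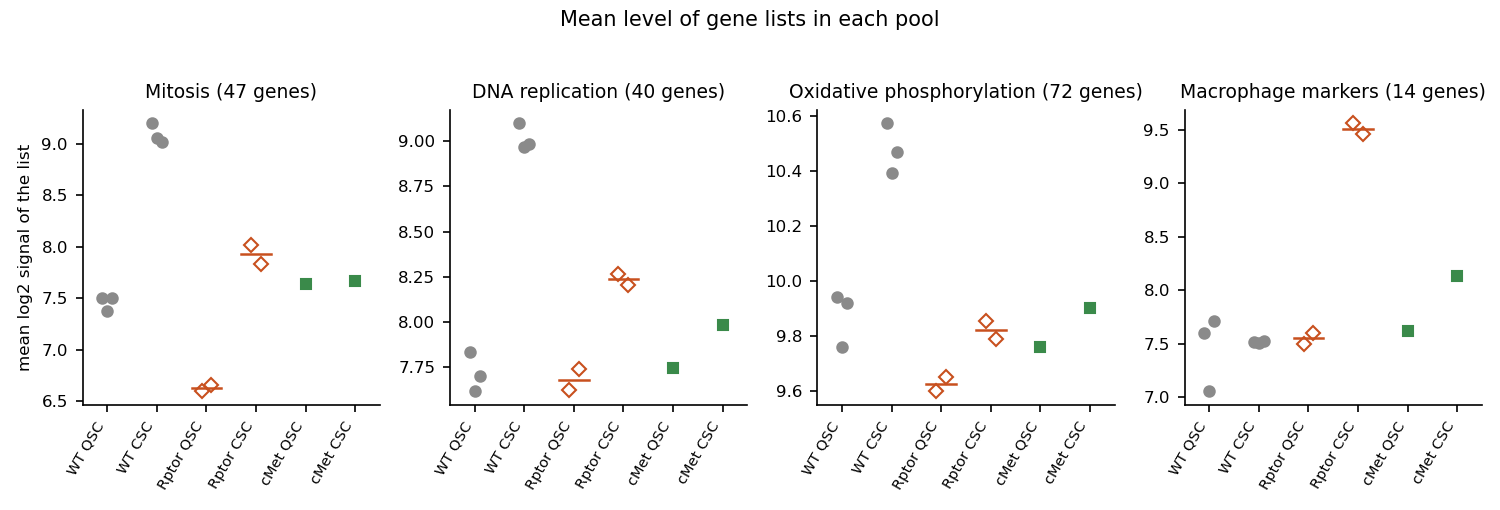
Mean log2 signal of 4 gene lists in each pool. Grey points are WT pools, open orange diamonds the 2 arrays of each Rptor KO pool with their mean as a line, and green squares cMet KO pools; the mitosis list runs from 6.60 and 6.66 to 8.01 and 7.84 in the Rptor KO, and the macrophage list reaches 9.56 and 9.46 in Rptor KO CSC.

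The 12 largest WT rises all had smaller Rptor KO differences, and Lgals3 was the one of them called in the Rptor KO. These 12 were chosen by the size of their WT rise, so smaller values in another comparison are partly built into the choice. Eno3, muscle enolase of glycolysis, was the largest WT rise, from 8.10 to 8.65 in QSC to 11.83 to 12.14 in CSC (3.59). In the Rptor KO it read 8.04 and 8.28 in QSC and 9.61 and 9.44 in CSC, a difference of 1.37 ± 0.29 (adjusted p = 0.194). Both Rptor KO CSC arrays were thus above all QSC values and at least 2 log2 units below each WT CSC pool. The difference of responses was -2.23 (95% interval -2.99 to -1.46, adjusted p = 0.114). Myof, myoferlin, which repairs and fuses muscle membranes, differed by 1.06 ± 0.34 beside 2.96 in WT. Prrg4, a membrane protein with a Gla domain, differed by 0.75 ± 0.28 beside 2.88, and Atp1b1, a subunit of the sodium pump, by 0.50 ± 0.31 beside 2.65. Dynap differed by 0.32 ± 0.54 beside 2.85, and the potassium channel gene Kcnn4 by 1.07 ± 0.28 beside 2.54. Dynap had a WT CSC range of 8.22 to 9.59 and read 6.28 and 6.01 in Rptor KO CSC, near its QSC level.

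Genes of energy metabolism, many of which rose in WT, had small differences in the Rptor KO. Of 72 genes of oxidative phosphorylation, none was called and 3 were higher at an unadjusted p under 0.05, near the 3.09% of all tested genes. In WT 41 of the 72 rose, beside 10.6% of all tested genes. The median difference was 0.19 in the Rptor KO, 0.56 in WT and 0.13 in the cMet KO. The mean level went from 9.60 and 9.65 to 9.86 and 9.79 in the Rptor KO, below the WT CSC range of 10.39 to 10.57. Cox5a, a subunit of cytochrome c oxidase, read 8.81 and 8.96 in QSC and 9.31 and 9.12 in CSC (0.33 ± 0.26), beside a WT rise of 1.09. Sdhd of complex II differed by 0.23 ± 0.32 beside 1.44, while Cycs, cytochrome c, differed by 0.85 ± 0.26 beside 0.57 from a Rptor KO QSC level of 10.78, below the WT QSC mean of 11.93.

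Of 75 mitochondrial ribosome genes, none was called in the Rptor KO and 48 rose in WT, with medians of 0.21 and 0.73. The share to set beside each WT count of these lists is the 10.6% of all tested genes that rose. The TCA cycle list (20 genes) had medians of 0.15 and 0.45, with 0 and 10 called, and the Rptor KO difference was below the WT response in all 20, beside 53% of all tested genes. The proteasome list (31 genes) had medians of 0.39 and 0.77, with 0 called in the Rptor KO and 22 in WT. It had 6 genes higher at an unadjusted p under 0.05 in the Rptor KO, beside 3.09% of all tested genes. It began lower, at a mean of 9.36 in Rptor KO QSC beside 9.76 to 10.01 in WT QSC, and reached 9.71 in Rptor KO CSC. Psmb3, a subunit of the catalytic core, differed by 0.68 ± 0.23 beside 0.75 in WT. The 18 glycolysis genes had medians of 0.14 and 0.41, with 0 called in the Rptor KO and 9 in WT. For the 42 genes of ribosome biogenesis the medians were 0.25 and 0.49, and for the 48 ribosomal protein genes they were -0.02 in both.

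A set of oxidative stress and pentose phosphate genes had a median difference near that of WT, between lower levels. Its mean level was 9.71 in Rptor KO QSC, beside 9.83 to 9.94 in WT QSC, and 10.20 in Rptor KO CSC, beside 10.33 to 10.38 in WT CSC. The 22 tested genes of the NRF2 list (NRF2 is the regulator of antioxidant genes) had a median of 0.34 in the Rptor KO, 0.27 in WT and 0.11 in the cMet KO. None passed the adjusted threshold in the Rptor KO. At an unadjusted p under 0.05, 8 were higher, beside 3.09% of all tested genes, and 8 rose in WT, beside 10.6%. Slc7a11, the cystine importer, read 6.96 and 6.88 in QSC and 8.91 and 8.46 in CSC (1.77 ± 0.43, adjusted p = 0.293), beside a WT rise of 1.06. Pgd of the pentose phosphate pathway read 8.48 and 8.63 in QSC and 9.81 and 10.13 in CSC (1.41 ± 0.28, adjusted p = 0.150), beside 1.61. Akr1b8, an aldose reductase relative, differed by 0.93 ± 0.22 beside 2.68, and Me1, the malic enzyme that makes NADPH, by 0.74 ± 0.23 beside 1.43.

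**Figure D5:**
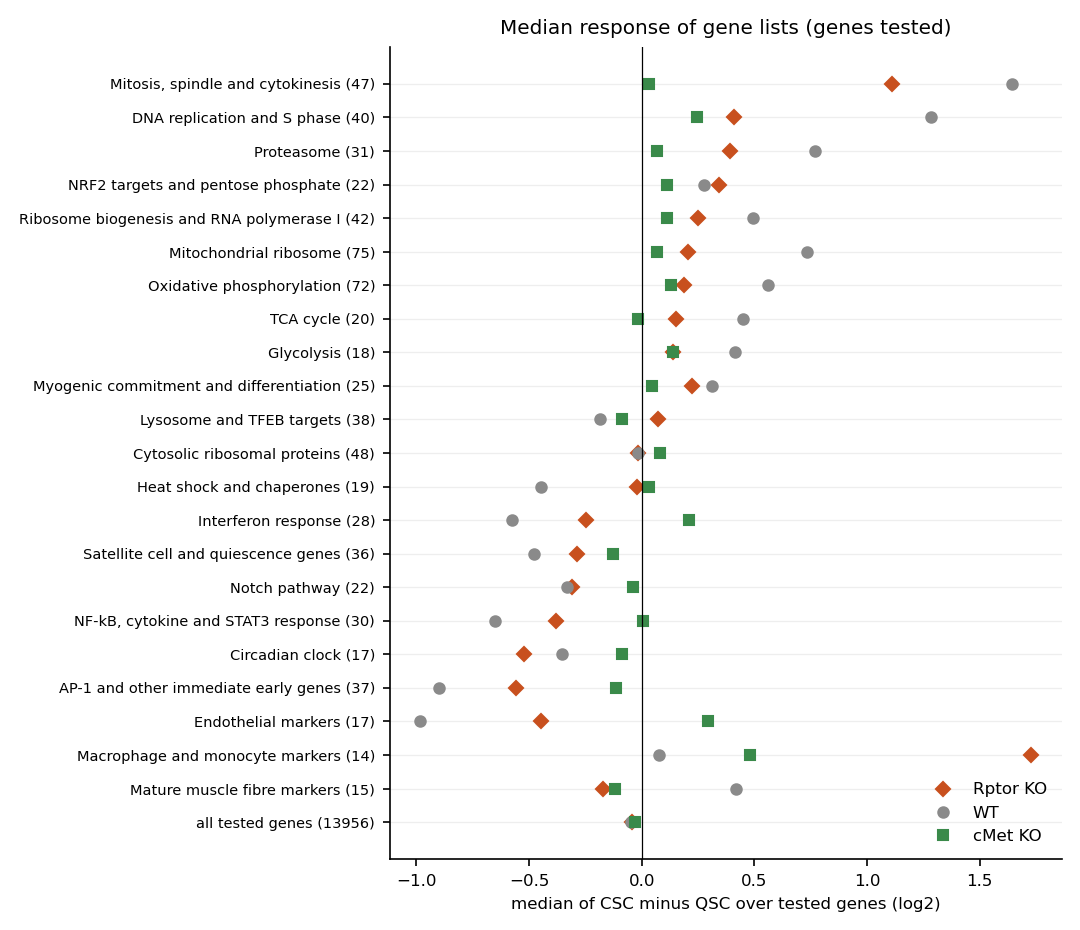
Median CSC minus QSC difference (log2) over the tested genes of each list, in the Rptor KO (orange diamonds), WT (grey circles) and cMet KO (green squares), with the number of genes in parentheses. The Rptor KO median is 1.11 for mitosis, 0.41 for DNA replication, 1.73 for macrophage markers and -0.56 for immediate early genes.

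On the lower side no gene was called. Of the 6 lower genes with the smallest p, one was the microRNA gene Mir543 (-1.38), and the other 5 were inflammatory and stress genes. Cebpd, a transcription factor of the acute phase response, read 11.35 and 11.17 on the Rptor KO QSC arrays and 10.23 and 9.34 on the CSC arrays. Its difference was -1.48 ± 0.24 (adjusted p = 0.0552), beside -1.10 in WT. Tnfaip3, the NF-kB inhibitor A20, read 11.09 and 10.96 in QSC and 9.75 and 9.70 in CSC (-1.30 ± 0.29), beside -1.15 in WT. Irf1, an interferon regulatory factor, differed by -1.17 ± 0.26 beside -1.03, the guanylate-binding protein gene Gbp5 by -1.20 ± 0.25 beside -1.12, and Birc3, an inhibitor of apoptosis, by -0.99 ± 0.21 beside -1.66. The adjusted p of these 4 genes after Cebpd ran from 0.177 to 0.202, and in WT all 5 genes fell. In each of the 5, both CSC arrays were below both QSC arrays.

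Immediate early genes, which stress and tissue dissociation are known to raise, were lower as a list. Of 37 members, 35 had a negative Rptor KO difference (56.5% of all tested genes), and 31 had both CSC arrays below both QSC arrays (28.2% of all tested genes). At an unadjusted p under 0.05, 13 were lower, beside 1.97% of all tested genes, and none after adjustment. In WT 24 fell, beside 7.36% of all tested genes. The median was -0.56 in the Rptor KO, -0.90 in WT and -0.12 in the cMet KO. Junb, a subunit of the AP-1 factor, read 12.58 and 12.41 in QSC and 11.44 and 11.46 in CSC (-1.04 ± 0.25, adjusted p = 0.284), beside -1.02 in WT. The difference of responses for Junb was -0.03, with a 95% interval of -0.68 to 0.63. Nr4a3, an orphan nuclear receptor, differed by -1.25 ± 0.35 beside -1.40, and the antiproliferative gene Btg2 by -1.01 ± 0.27 beside -1.42. The 30 NF-kB and cytokine genes had medians of -0.38 and -0.65, and the 28 interferon response genes -0.25 and -0.58.

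Clock and Notch genes showed medians close to those of WT. The 17 circadian clock genes had a median of -0.52 in the Rptor KO and -0.36 in WT, with 0 called, and 5 lower and 1 higher called in WT. Per1 read 10.58 and 10.68 in QSC and 9.40 and 9.61 in CSC (-1.12 ± 0.41), beside -1.18 in WT, and Tef differed by -0.76 ± 0.23 beside -0.35. The time of day of each sort is not given in the sources used here, and its part was not tested. The 22 Notch genes had medians of -0.31 and -0.33. Heyl and Hes1, targets of Notch signalling that mark quiescent stem cells, differed by -0.93 ± 0.47 and -0.89 ± 0.47, beside -1.05 and -1.19 in WT.

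Genes of the quiescent stem cell had a median of -0.29 in the Rptor KO and -0.48 in WT over 36 members, of which none was called in the Rptor KO and 14 fell in WT. Pax7, the factor that specifies these cells, differed by -0.64 ± 0.43 (95% interval -1.60 to 0.33) beside a WT fall of 1.07. The difference of responses for Pax7 was +0.44, with an interval of -0.68 to 1.55. Calcr, the calcitonin receptor, differed by -0.45 ± 0.39 beside -1.17. Spry1, a brake on growth factor signalling, differed by -0.72 ± 0.33 beside -0.70, and the cell cycle inhibitor Cdkn1b by -0.46 ± 0.23 beside -0.48. Myod1 differed by -0.06 ± 0.41. Cd34 read 10.79 and 10.54 in Rptor KO QSC, below the WT QSC pools at 11.33 to 12.09, and 10.97 and 10.60 in CSC.

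Myogenic differentiation genes (25 tested) had medians of 0.22 in the Rptor KO and 0.31 in WT, with 0 called and 10 higher in WT. Myog, myogenin, which starts terminal differentiation, read 6.97 and 7.24 in Rptor KO QSC, below the WT QSC pools at 8.35 to 10.33, and 7.78 and 8.12 in CSC. The 15 tested markers of mature muscle fibres had a median of -0.17 in the Rptor KO and 0.42 in WT, and their mean level was 7.68 in Rptor KO QSC and 7.63 in CSC, beside 8.51 to 8.80 in WT CSC.

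Of the 12 largest WT falls, 11 had a negative Rptor KO difference and none was called. Aqp7, a glycerol channel, was nearest to its WT change: it read 9.08 and 9.26 in QSC and 7.80 and 8.19 in CSC (-1.18 ± 0.27), beside -1.73. Zbtb16 differed by -0.70 ± 0.50 beside -1.82, and Il6, interleukin 6, by -0.91 ± 0.51 beside -1.75. Gpr50 had the opposite sign, 0.33 ± 0.44 beside -1.63: it read 6.29 and 6.04 in Rptor KO QSC, already below all WT QSC pools (7.77 to 8.87). Several of the 12 are genes of blood vessel cells. Emcn, endomucin, differed by -0.30 ± 0.33 beside -1.79, the fatty acid transporter Cd36 by -0.37 ± 0.35 beside -1.80, and Cdh5, VE-cadherin, by -0.65 ± 0.44 beside -1.65. All 17 tested endothelial markers had a negative Rptor KO difference, beside 56.5% of all tested genes, with none called and a median of -0.45 (-0.98 in WT, 0.29 in the cMet KO), and their mean level was 8.80 in Rptor KO QSC and 8.35 in CSC. Fibro-adipogenic, pericyte and tendon cell markers had Rptor KO medians of -0.28, -0.33 and -0.31, beside -0.60, -0.70 and -0.64 in WT. The part of these cell types in the lower genes was not tested.

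Genes of the mTORC1 pathway itself showed no call. The 36 tested components of mTORC1, mTORC2 and the TSC complex had a median difference of -0.09, beside 0.11 in WT, with 0 called in the Rptor KO and 5 higher and 2 lower in WT. Mtor differed by -0.20 ± 0.40, Rictor of mTORC2 by -0.25 ± 0.24, and Mlst8, a subunit of both complexes, by 0.46 ± 0.33 beside a WT rise of 0.66. The translation repressor gene Eif4ebp1, a product that mTORC1 phosphorylates, differed by 0.46 ± 0.29 beside 0.40. Sterol synthesis genes, known to depend on mTORC1 through SREBP, had a median of -0.19 over 20 members in the Rptor KO and -0.18 in WT. They were low in Rptor KO QSC, with a median of -0.89 against WT QSC, and below all WT QSC pools in 17 of 20, beside 26.5% of all tested genes. Fdps, farnesyl diphosphate synthase, was called lower there: 8.13 and 8.14 beside 9.60 to 9.83 in WT QSC, a fall of 1.60 ± 0.22 (adjusted p = 0.0230). Lysosome genes had a median of 0.07 in the Rptor KO and -0.18 in WT. Macrophage markers had a median of 1.73 in the same Rptor KO comparison, and their part in the lysosome median was not tested.

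Rptor KO CSC stood further from WT CSC than Rptor KO QSC from WT QSC. Against the 3 WT CSC pools, 415 genes were called lower (2.97%) and 129 higher (0.924%), beside 12 and 5 between the QSC groups. The counts lay closer at an unadjusted p under 0.05, with 1884 lower and 881 higher in CSC, beside 1012 and 561 in QSC. Genes past 2-fold numbered 567 in CSC and 212 in QSC. Both comparisons had the same SE, because the fit shares 1 error over all WT pools. The WT QSC pools were the more variable ones, with a median SD of 0.207 against 0.131 for the WT CSC pools. Of the genes already named, Eno3, Ccna2 and Cox5a were called lower in Rptor KO CSC, by 2.48, 1.63 and 1.33 below the WT CSC mean. C3ar1, Mpeg1 and Tyrobp were called higher there, by 2.86, 2.96 and 2.65. Gpnmb, a lysosomal glycoprotein, was higher in both: it read 11.81 and 11.70 in Rptor KO QSC and 12.04 and 11.89 in CSC, beside 9.10 to 9.88 in WT QSC and 8.47 to 8.98 in WT CSC. Its CSC minus QSC difference was 0.21 ± 0.37. Gal, which encodes the neuropeptide galanin, was called lower in Rptor KO QSC (11.45 and 11.11, WT QSC 13.05 to 13.13) and read 12.43 and 12.25 in CSC, a difference of 1.06 ± 0.23 that did not pass (adjusted p = 0.189), while WT differed by -0.11.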

How the data were processed

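Each deposited value is a log2 signal per probeset, made by the authors with RMA; per the submitters' processing notes, the software was Affymetrix Expression Console. Its version, the genome build and the set of arrays normalized together are not stated in the labels. Of 35556 probesets, 21789 carried 1 gene symbol, and the brightest probeset was kept for each of 19938 genes. Genes under the 30th percentile of the mean over pools (6.45) did not enter the tests, which covered 13956. The technical arrays of each pool were averaged. Group means over the 12 pools were estimated by limma 3.58.1 (lmFit, then eBayes) under R 4.3.3. Its 4 residual degrees of freedom, 5.01 prior ones and a median moderated SD of 0.189 come from the WT pools alone, so each Rptor KO pool is assumed to vary like them. The p-values cover the spread between these pools. The fit was also run on simulated data in which all pools of a gene had the same spread. That run cannot check whether Rptor KO pools vary like WT pools.

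The members, gene lists and tests were chosen with earlier results of these data known. The named genes are those with the largest called change (up to 14 each way), the 5 with the smallest p where few passed, the 12 largest WT rises and falls, up to 4 list members with the smallest p, and a panel of stem cell, cell cycle and mTOR genes. Genes outside this rule (Lyz2, Adgre1, Cd163, Ptprc, Mcm6, Hells, Gpnmb, Gal, Fdps, Mir543 and some of the 36 called genes) were chosen after their values were seen. Promoters came from the RefSeq table of GRCm38.p6. Alternatives covered normalization, filter, probesets, variance model, technical arrays, WT pools, replicate block and threshold. Leaving out 3 second arrays was added after the data were seen. Figures were drawn with matplotlib 3.10.9.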

Additional observations from a re-analysis of the deposited data

How the results depend on the processing

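The 36 genes called in the Rptor KO, all higher, became 23 with each array centred on its median and 62 (61 higher, 1 lower) with first arrays alone. The count was 22 (21 higher, 1 lower) with the second Rptor KO arrays alone, and 10 at an adjusted p under 0.01. With all arrays and the pool as a random block it was 112 (98 higher, 14 lower). Quantile normalization, trend and robust options, and an adjusted p under 0.1 each gave 1 gene called lower. So did leaving out WT QSC pool 1 or the 3 second arrays. Leaving out 1 WT pool gave 15 to 55. The 0 genes called for the difference between the Rptor KO and WT responses became 4 with quantile normalization, 12 with trend and robust options, 11 with first arrays alone, 49 with the random block, 10 without 3 second arrays (added after the data were seen), and 0 to 19 without 1 WT pool, the most without WT QSC pool 2. With the replicate block of the WT pools, which pairs only WT pools by number, the counts were 32 and 0. The correlation of 0.617 was 0.542 without the filter and 0.531 with the second Rptor KO arrays. The slope of 0.467 stayed between 0.424 and 0.501 in the refits. The cause of these changes was not tested. The random block takes its error from technical arrays too. Single pools per Rptor KO group limit every call, and signals near the filter compress differences.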
